A study of Mus musculus with 12 samples.

Results

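Transcript levels were compared for 38 potassium channel genes of the mouse in hippocampal RNA from 3 strains. The set held the neuronal Kv1, Kv2, Kv4 and Kv7 channels, the EAG family, the calcium- and sodium-activated channels, inward rectifiers, two-pore channels and auxiliary subunits. The Kv3, GIRK and HCN channels and Kcnj10 were left out of it. Members were every probe that carries one of these symbols in the platform annotation, which gave 56 of 39429 gene probes for 37 of the 38 genes. Kcnb2, a Kv2 pore-forming subunit, had no probe under its symbol.

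Each of 12 dual-colour arrays held RNA of 1 mouse beside a reference pool of C57BL/6J RNA, and there were 4 mice per strain at postnatal day 14. The Bl6 mice were C57BL/6J and were numbered 2, 5, 8 and 11. The CSS1 mice were numbered 3, 6, 9 and 12, and the CSS2 mice 1, 4, 7 and 10. The names CSS1 and CSS2 were read as strains with a substituted chromosome 1 or chromosome 2, from a donor, in otherwise Bl6 mice. The labels name neither the donor nor the sex of the mice. All values below are log2 ratios of a mouse over the Bl6 pool, with the fitted effect of the dye taken out, and lists of 4 values follow the order of mouse numbers just given. The labels give hippocampus as the tissue, whereas the design text of the series speaks of brains.

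Potassium channels let potassium leave or enter the neuron and so set its resting potential, shape the action potential and limit repetitive firing. A pore is built from pore-forming subunits, and auxiliary subunits change its gating or its delivery to the membrane. In the hippocampus, Kv1 channels sit mainly on axons, Kv4 channels with their KChIP partners carry the transient A-type current of dendrites, and Kv7 channels carry the M current. Two-pore channels carry leak currents, and loss of several channels in the set is known to cause seizures in mice or people. The title of the series concerns a susceptibility gene for febrile seizures, and comparing each strain with Bl6 asks which transcripts differ with the substituted chromosome.

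All 56 member probes passed the filter on dim probes. Of these, 54 were above background on all 12 arrays, and a dim Kcnq5 probe and the Kcnn1 probe missed it on the array of CSS2 mouse 1. Over all gene probes, median sample signals ranged from 188 to 408 intensity units over backgrounds of 36 to 42, and 89.6% to 99.9% of probes were above background, the lowest share again on the array of CSS2 mouse 1. All 20 markers of hippocampal neurons were above background on all 12 arrays. The same held for all 13 measured markers of neighbouring brain regions, so this check did not separate hippocampus from other brain tissue.

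The promoters of Kcnk2 and Kcnma1 are shown because these were the member genes past the threshold against Bl6. The sequences are RefSeq's for GRCm38.p6 and run from 250 bases before to 50 bases after an annotated start. They are the C57BL/6J reference and so the sequence of the Bl6 mice, not that of a donor chromosome. Kcnk2 lies on chromosome 1 and has 4 annotated starts, 2 of which are printed. Promoter 1 spans chr1:189402224-189402523 and promoter 3 spans chr1:189343658-189343957. Kcnma1 has 1 start in the table, on chromosome 14, with a promoter at chr14:24004156-24004455. All lie on the minus strand and read 5′ to 3′ in the direction of transcription. Capitals mark the dinucleotide CG, which reads the same on both strands.
Kcnk2 promoter 1: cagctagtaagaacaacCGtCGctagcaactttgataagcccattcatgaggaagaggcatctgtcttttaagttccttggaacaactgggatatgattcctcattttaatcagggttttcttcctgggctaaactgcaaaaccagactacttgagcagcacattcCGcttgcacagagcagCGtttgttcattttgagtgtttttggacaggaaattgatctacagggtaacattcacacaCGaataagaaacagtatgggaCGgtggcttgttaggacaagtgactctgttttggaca
Kcnk2 promoter 3: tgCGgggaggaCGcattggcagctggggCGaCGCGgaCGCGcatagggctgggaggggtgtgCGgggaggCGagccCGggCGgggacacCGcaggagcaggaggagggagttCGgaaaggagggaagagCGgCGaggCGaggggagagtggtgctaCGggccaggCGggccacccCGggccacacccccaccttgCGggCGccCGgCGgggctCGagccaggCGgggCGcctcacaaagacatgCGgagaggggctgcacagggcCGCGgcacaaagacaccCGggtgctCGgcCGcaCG
Kcnma1 promoter: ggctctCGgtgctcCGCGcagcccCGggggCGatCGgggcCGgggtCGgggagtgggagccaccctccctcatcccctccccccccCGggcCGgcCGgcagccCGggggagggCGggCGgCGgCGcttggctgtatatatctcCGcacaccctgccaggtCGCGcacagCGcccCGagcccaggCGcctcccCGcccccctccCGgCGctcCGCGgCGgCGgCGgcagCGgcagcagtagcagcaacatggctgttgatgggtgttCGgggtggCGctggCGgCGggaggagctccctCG
The first Kcnk2 promoter held 6 CG dinucleotides at a GC content of 43.0%, and 56.4% of the 32851 promoters in the table held at least as many. Promoter 3 held 33 at a GC content of 74.7%, a number reached by 8.56% of promoters. The Kcnma1 promoter held 36 at a GC content of 78.0%, and 6.23% of promoters held as many. The array does not tell which Kcnk2 start was in use.

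In CSS1 against Bl6, 1 of the 37 genes passed the adjusted threshold of 0.05, against 2.03% of the 21643 genes tested by their brightest probe. This gene was Kcnk2, and it was lower in CSS1. In probes, the count was 1 of 56, against 1.73% of all 39239 kept probes. In CSS2 against Bl6, 1 gene passed, Kcnma1, and it was lower in CSS2, against 1.04% of genes and 0.905% of probes. In CSS1 against CSS2, 1 gene passed, Kcnt1, and it was higher in CSS1, against 0.97% of genes and 0.917% of probes. A count of 1 gene in each comparison stands near these background shares, so the number of calls is no result about potassium channels as a group. Both numbers moved when 1 mouse was left out. The count of member probes then ranged from 0 to 5 in CSS1, the 5 without Bl6 mouse 8, and from 0 to 2 in both other comparisons. The share of all kept probes called ranged from 0.629% without Bl6 mouse 2 to 2.08% without Bl6 mouse 8 in CSS1. In CSS2 it ranged from 0.431% without CSS2 mouse 10 to 0.91% without CSS1 mouse 9, and in CSS1 against CSS2 from 0.604% without CSS2 mouse 10 to 0.94% without Bl6 mouse 8. Both comparisons with Bl6 share the same 4 Bl6 mice and the pool.

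**Figure D1:**
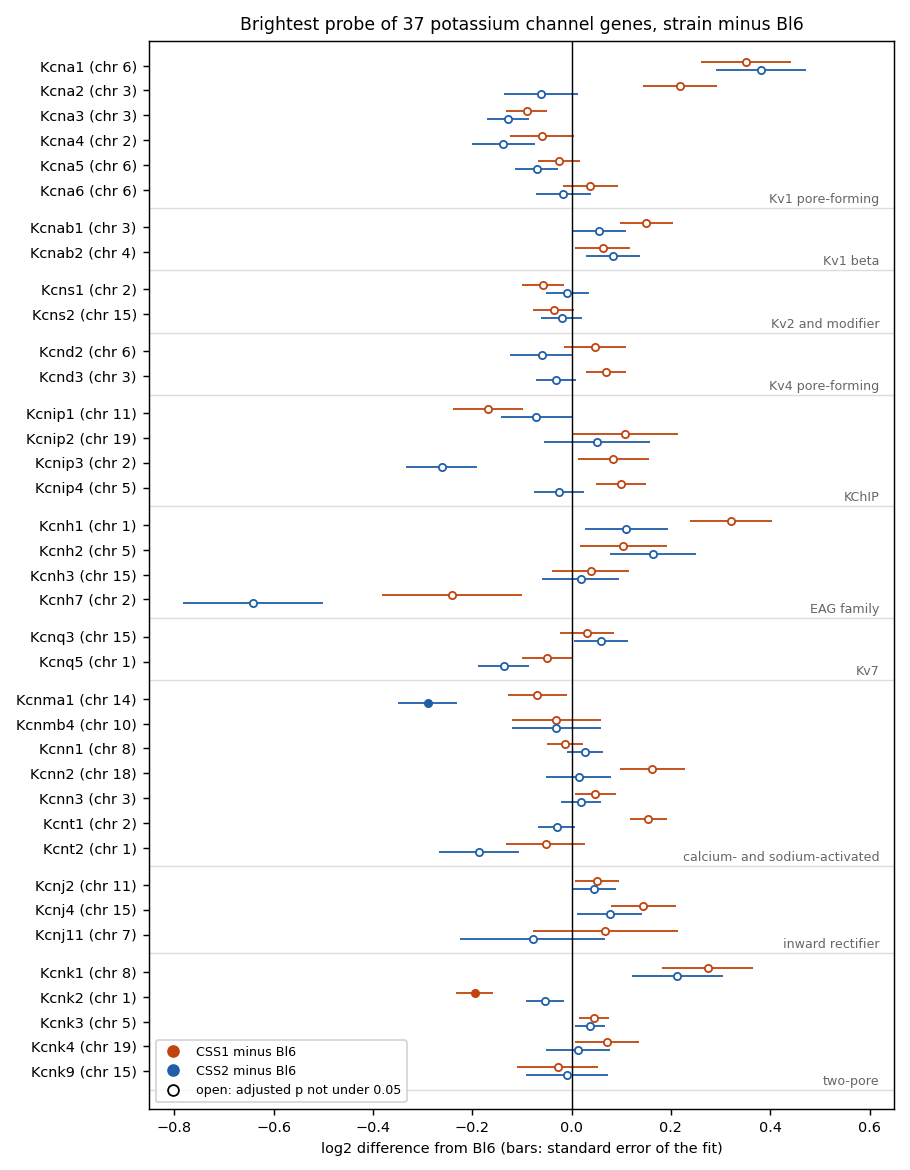
Log2 difference of CSS1 and of CSS2 from Bl6 on the x axis for the brightest probe of each of the 37 genes, ordered by channel class, with bars for the standard error of the fit and filled points for an adjusted p under 0.05. Kcnk2 in CSS1 and Kcnma1 in CSS2 are the filled points, and Kcnh7 in CSS2 lies farthest from 0 at -0.64.

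Most differences were small. The difference from Bl6 was under 0.1 in size for 24 of 37 genes in CSS1 and for 26 of 37 in CSS2, with standard errors from 0.030 to 0.15. The 95% interval of the difference lay within 0.25 of 0 for the same numbers of genes, 24 and 26, and within 0.5 for 34 in CSS1 and 35 in CSS2. The median over member probes was 0.031 in CSS1 against -0.0029 over all kept probes, and -0.016 in CSS2 against -1e-04. These medians depended on single mice. In CSS1 the median ranged from 0.0129 without Bl6 mouse 11 to 0.0394 without Bl6 mouse 5. In CSS2 it ranged from -0.0246 without CSS2 mouse 4 to 0.0017 without CSS2 mouse 7, was 6e-04 without Bl6 mouse 8, and was 0.0104 with median centring of the arrays, so its sign changed with these choices. The median size of a difference was 0.059 over member probes against 0.038 over all probes in CSS1 and 0.050 against 0.038 in CSS2. In CSS1, 23 of 37 genes had a difference above 0, or 62.2% against 48.7% of all genes, and in CSS2, 16 of 37, or 43.2% against 52.5%. In CSS1 against CSS2 the number was 27, or 73% against 47.7%, and the median over member probes was 0.037 against -7e-04 over all.

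The 4 mice of one strain did not overlap with the 4 Bl6 mice in more genes than passed the adjusted threshold. In CSS1 this held for 6 genes on the higher side, Kcna1, Kcnab1, Kcnh1, Kcnj4, Kcnk1 and Kcnt1, against 4.49% of all genes, and for 1 on the lower side, Kcnk2, against 4.14%. In CSS2 it held for 1 gene on the higher side, Kcna1, against 4.16%, and for 7 on the lower side, Kcna3, Kcna5, Kcnh7, Kcnip3, Kcnma1, Kcnq5 and Kcnt2, against 3.01%. Of the 37 members, these are 16.2% and 2.7% in CSS1, and 2.7% and 18.9% in CSS2. The counts take only the brightest probe of a gene, and further probes of several of these genes differed, as given below. Between CSS1 and CSS2, 5 genes were apart with CSS1 higher, Kcna2, Kcnd3, Kcnip3, Kcnma1 and Kcnt1, or 13.5% against 2.62% of all genes. Kcnk2 was apart with CSS1 lower, or 2.7% against 3.45%. At an unadjusted p under 0.05 in limma, 10 of 56 member probes, or 17.9%, passed in CSS1 against 11.1% of all kept probes. The same number passed in CSS2, against 9.16%, and 13 or 23.2% passed in CSS1 against CSS2, against 8.14%.

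**Figure D2:**
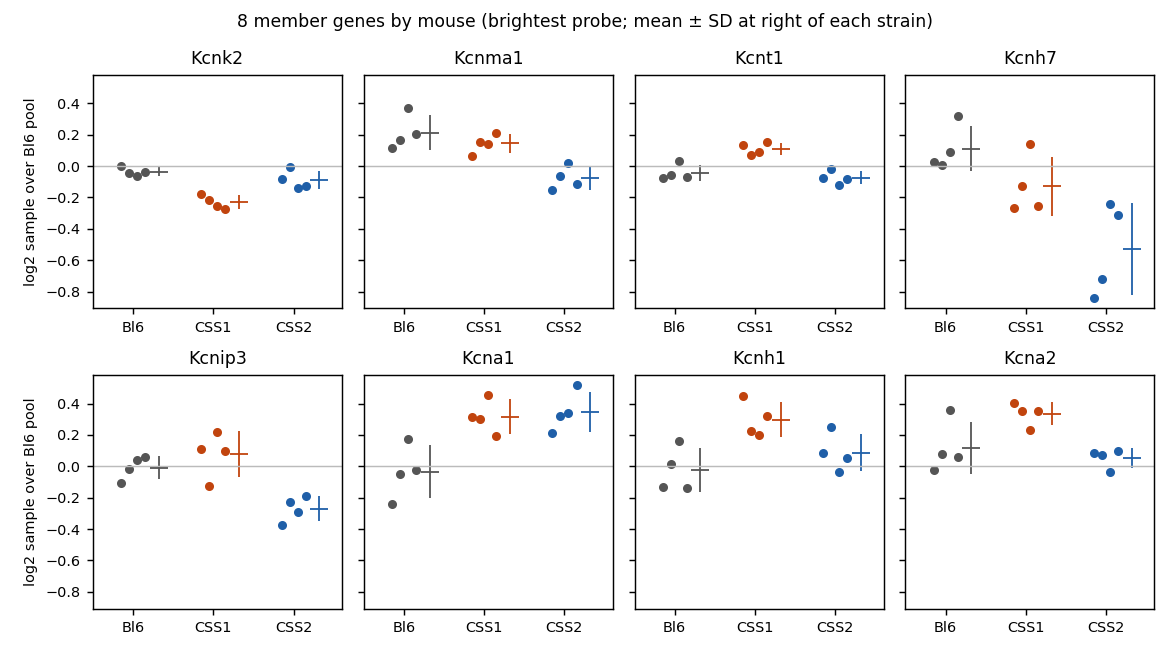
Log2 sample over Bl6 pool on the y axis for 8 member genes by their brightest probe, 1 point per mouse, with a cross for the mean and a bar for the SD of the 4 mice of a strain. The 4 CSS1 mice lie below all Bl6 mice for Kcnk2, and the 4 CSS2 mice below all Bl6 mice for Kcnma1, Kcnh7 and Kcnip3.

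Kcnk2 encodes TREK-1, a two-pore leak channel opened by stretch, heat and lipids, and the gene lies on chromosome 1. The Bl6 mice had log2 ratios of 0.0014, -0.045, -0.061 and -0.036. The CSS1 mice had -0.18, -0.22, -0.25 and -0.28, and the CSS2 mice -0.084, -0.0058, -0.14 and -0.13. All CSS1 mice lay below all Bl6 mice and below all CSS2 mice, while CSS2 and Bl6 overlapped. The difference of CSS1 from Bl6 was -0.20 ± 0.038 (SE of the fit, n = 4 per strain), a 1.145-fold lower level, with a limma adjusted p of 0.02565. CSS1 against CSS2 gave -0.14 at an adjusted p of 0.173, which did not pass. Kcnk2 had 1 probe, so no second probe could be set beside it.

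The other two-pore genes did not pass the threshold in either strain. Kcnk1, which encodes TWIK-1, a subunit of leak channels, had differences of 0.27 in CSS1 (adjusted p = 0.221) and 0.21 in CSS2 (adjusted p = 0.502). Its CSS1 mice, at 0.38, 0.27, 0.12 and 0.18, lay above the highest Bl6 mouse at 0.11, the lowest of them only just. CSS2 mouse 7, at -0.088, lay among the Bl6 mice. Kcnk3 and Kcnk9, the acid-sensitive TASK channels, and Kcnk4, which encodes TRAAK, had differences between -0.028 and 0.072 in both strains.

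Kcnma1 encodes the pore of the BK channel, which opens on calcium and voltage together and speeds repolarisation. The Bl6 mice had log2 ratios of 0.11, 0.16, 0.37 and 0.20, and the CSS1 mice 0.067, 0.16, 0.14 and 0.21. The CSS2 mice had -0.15, -0.061, 0.021 and -0.11. All CSS2 mice lay below all mice of both other strains, and Bl6 mouse 8 was the highest of the 12. The Bl6 mice themselves lay above the pool, with a mean of 0.21 ± 0.11 (SD, n = 4). The difference of CSS2 from Bl6 was -0.29 ± 0.059 (SE), a 1.22-fold lower level, with a limma adjusted p of 0.04945. In CSS1 the difference was -0.069 (adjusted p = 0.805), and CSS1 against CSS2 gave 0.22 (adjusted p = 0.179). Kcnmb4, the neuronal beta subunit of the BK channel, differed by -0.031 in both strains, with an SE of 0.090.

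Kcnt1 encodes Slack, a sodium-activated channel, and lies on chromosome 2. The Bl6 mice had log2 ratios of -0.079, -0.060, 0.034 and -0.070, and the CSS1 mice 0.13, 0.068, 0.093 and 0.15. The CSS2 mice had -0.074, -0.021, -0.12 and -0.082. All CSS1 mice lay above all others, and the CSS2 mice overlapped with Bl6. CSS1 exceeded CSS2 by 0.18 ± 0.037 (SE), or 1.14-fold, at a limma adjusted p of 0.04385. CSS1 against Bl6 gave 0.15 (adjusted p = 0.0687), and CSS2 against Bl6 gave -0.030 (adjusted p = 0.908).

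Kcnt2, on chromosome 1, encodes Slick, the paralog of Slack. Its log2 ratios were 0.12, 0.13, 0.046 and 0.20 in Bl6 and 0.066, 0.046, 0.26 and -0.093 in CSS1. In CSS2 they were -0.27, -0.011, 0.030 and -0.011. The CSS1 values spanned those of Bl6, with a difference of -0.052 (adjusted p = 0.928). The CSS2 mice all lay below the Bl6 mice, and the difference of -0.19 had an adjusted p of 0.499. The small-conductance calcium-activated channels Kcnn1, Kcnn2 and Kcnn3, which carry the afterhyperpolarisation, did not pass. Kcnn2 had the largest of their differences, 0.16 in CSS1 (adjusted p = 0.356).

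The Kv1 genes encode axonal channels that oppose spiking near threshold, and loss of Kcna1 is known to cause epilepsy in mice. None of the 6 passed the threshold. Kcna1 had log2 ratios of -0.24, -0.049, 0.18 and -0.022 in Bl6, of 0.32, 0.30, 0.46 and 0.19 in CSS1 and of 0.21, 0.32, 0.34 and 0.52 in CSS2. Both strains lay above all Bl6 mice, and the Bl6 mice spread more widely than either. The differences were 0.35 ± 0.090 (SE) in CSS1 at a limma adjusted p of 0.09455 and 0.38 ± 0.090 in CSS2 at 0.101. They rest on the same Bl6 mice, and CSS1 and CSS2 differed by -0.030 (95% interval -0.23 to 0.17).

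Kcna2, which joins Kcna1 in axonal channels, had a difference of 0.22 in CSS1 (adjusted p = 0.233) and -0.062 in CSS2 (adjusted p = 0.905). Its CSS1 mice, at 0.40, 0.35, 0.23 and 0.35, lay above all CSS2 mice, at 0.086, 0.074, -0.038 and 0.10, and the direct difference of 0.28 had an adjusted p of 0.173. Kcna4, on chromosome 2, encodes an inactivating Kv1 subunit. Its CSS2 mice had -0.13, -0.17, 0.0078 and -0.0027, while the Bl6 mice had -0.090, 0.031, 0.18 and 0.14, and the CSS1 mice -0.062, -0.0070, 0.086 and 0.0042. The strains overlapped, and the difference of CSS2 from Bl6 was -0.14 (adjusted p = 0.562). Kcna3, Kcna5 and Kcna6 had differences between -0.13 and 0.037.

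Of the cytoplasmic beta subunits, Kcnab1 can make Kv1 channels inactivate quickly. Its log2 ratios were -0.089, 0.043, 0.026 and 0.019 in Bl6, 0.17, 0.072, 0.28 and 0.086 in CSS1, and 0.032, 0.044, -0.0009 and 0.15 in CSS2. All CSS1 mice lay above all Bl6 mice, and CSS2 overlapped with both. The difference of CSS1 from Bl6 was 0.15 (adjusted p = 0.254), and that of Kcnab2, the other beta subunit measured, was 0.062.

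With Kcnb2 unmeasured, the Kv2 group was represented by Kcns1 and Kcns2, silent subunits that form no channel alone and modify Kv2 channels. Kcns1, on chromosome 2, had log2 ratios of 0.0037, -0.0008, -0.0044 and -0.087 in Bl6, of -0.081, -0.12, -0.13 and 0.015 in CSS1 and of -0.039, 0.025, -0.011 and -0.10 in CSS2. The strains overlapped. Differences from Bl6 were -0.058 in CSS1 (adjusted p = 0.744) and -0.0084 in CSS2 (adjusted p = 0.986). Kcns2 differed by -0.036 and -0.020.

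Kcnd2 and Kcnd3 encode the Kv4 pores of the A-type current. Kcnd3 had log2 ratios of -0.053, 0.070, 0.13 and 0.029 in Bl6, of 0.16, 0.081, 0.11 and 0.10 in CSS1 and of -0.019, 0.039, 0.011 and 0.022 in CSS2. All CSS1 mice lay above all CSS2 mice, and Bl6 overlapped with both. CSS1 against CSS2 gave 0.10 (adjusted p = 0.511) by this brighter probe. The dimmer Kcnd3 probe gave -0.020, and by it these strains overlapped. The brightest Kcnd2 probe differed by 0.047 in CSS1 and -0.0605 in CSS2.

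The KChIP genes Kcnip1 to Kcnip4 encode calcium-binding partners that change the surface delivery and gating of Kv4 channels. Kcnip3, on chromosome 2, also encodes the transcriptional repressor DREAM. The Bl6 mice had log2 ratios of -0.11, -0.019, 0.038 and 0.060, and the CSS1 mice 0.11, -0.13, 0.22 and 0.10. The CSS2 mice had -0.37, -0.23, -0.29 and -0.19 and lay below all mice of both other strains. CSS1 against CSS2 gave 0.35 ± 0.071 (SE) at a limma adjusted p of 0.0511, just short of the threshold, and CSS2 against Bl6 gave -0.26 at 0.162. Kcnip1 had a difference of -0.17 in CSS1 (adjusted p = 0.394), Kcnip4 one of 0.10 (adjusted p = 0.536), and Kcnip2 one of 0.11 with an SE of 0.11.

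The EAG family comprises Kcnh1 (EAG), Kcnh2 and Kcnh7 (ERG channels) and Kcnh3 (ELK). Kcnh1 lies on chromosome 1. Its log2 ratios were -0.13, 0.016, 0.16 and -0.14 in Bl6, 0.45, 0.23, 0.20 and 0.32 in CSS1, and 0.083, 0.25, -0.035 and 0.053 in CSS2. All CSS1 mice lay above all Bl6 mice, and CSS2 overlapped with both. The difference of CSS1 from Bl6 was 0.32 ± 0.083 (SE) at a limma adjusted p of 0.0950.

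Kcnh7, on chromosome 2, had the largest difference of any member by its brightest probe, -0.64 ± 0.14 (SE) in CSS2, or 1.56-fold lower, at an adjusted p of 0.0703. Its log2 ratios were 0.028, 0.0088, 0.089 and 0.32 in Bl6 and -0.27, -0.13, 0.14 and -0.26 in CSS1. In CSS2 they were -0.84, -0.72, -0.24 and -0.31. All CSS2 mice lay below all Bl6 mice, CSS2 mice 1 and 4 lay far below mice 7 and 10, and 3 of 4 CSS1 mice lay below the Bl6 mice too. The SD was 0.30 in CSS2, against 0.14 in Bl6. Kcnh2 and Kcnh3 had differences between 0.019 and 0.16, and neither passed.

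Kv7 channels were represented by Kcnq3, which differed by 0.030 and 0.059, and Kcnq5, on chromosome 1. Kcnq5 had log2 ratios of -0.040, -0.014, 0.12 and 0.078 in Bl6, -0.014, -0.086, 0.046 and -0.0063 in CSS1 and -0.22, -0.072, -0.049 and -0.065 in CSS2. CSS2 lay below all Bl6 mice, with mouse 1 lowest, and CSS1 overlapped with Bl6. The differences were -0.050 in CSS1 (adjusted p = 0.859) and -0.14 in CSS2 (adjusted p = 0.387).

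The inward rectifiers were Kcnj2 and Kcnj4, which hold the resting potential, and Kcnj11, the pore of the ATP-sensitive channel. Kcnj4 had log2 ratios of -0.046, -0.080, -0.0084 and -0.065 in Bl6, 0.080, 0.058, 0.015 and 0.23 in CSS1, and 0.21, 0.044, -0.10 and -0.039 in CSS2. All CSS1 mice lay above all Bl6 mice, with the lowest at 0.015, and CSS2 overlapped with both. The difference of 0.14 in CSS1 had an adjusted p of 0.449. Kcnj2 differed by 0.051 and 0.045. Kcnj11 differed by 0.0675 and -0.078, each with an SE of 0.15, the widest error of the 37 genes.

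Where a gene had several probes, they did not always tell the same. There were 15 such genes with 23 pairs of probes, and the correlation of a pair over the 12 mice, which share each array's error, ran from -0.44 to 0.95, with 10 pairs above 0.5. In CSS2 against Bl6, the 3 Kcnma1 probes gave -0.29, -0.26 and 0.0415, so the pair of brighter ones was low in CSS2 and the dimmest was not. The second Kcnma1 probe had an adjusted p of 0.148. Kcnip3 gave -0.26 by its brighter and 0.025 by its dimmer probe, and Kcnh7 gave -0.64 and -0.0175. In the same comparison Kcna5 gave -0.0705 by its brighter and 0.057 by its dimmer probe, and the Kcnq5 probes gave -0.14, -0.016 and 0.023. Both Kcnt2 probes were low in CSS2, at -0.19 and -0.12. Kcnt1 gave 0.18 and 0.024 in CSS1 against CSS2, and 0.15 and -0.015 in CSS1 against Bl6. Kcnd3 gave 0.10 and -0.020 in CSS1 against CSS2. Which transcripts or exons each probe covers was not analysed here.

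The Kcnd2 probes differed in their spread between mice. Probe 2, the next after the brightest, gave -0.29, -0.17, 0.29 and 0.32 in Bl6, -0.38, -0.19, 0.30 and -0.24 in CSS1, and -0.87, -0.78, 0.14 and 0.26 in CSS2. Probe 3 followed it with a correlation of 0.95 over the 12 mice, while the brightest stayed between -0.13 and 0.16. By probes 2 and 3 the difference of CSS2 from Bl6 was -0.35 and -0.46, with SEs of 0.27 and 0.24, and neither passed. The mice of a strain differed more from each other than the strains did.

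**Figure D3:**
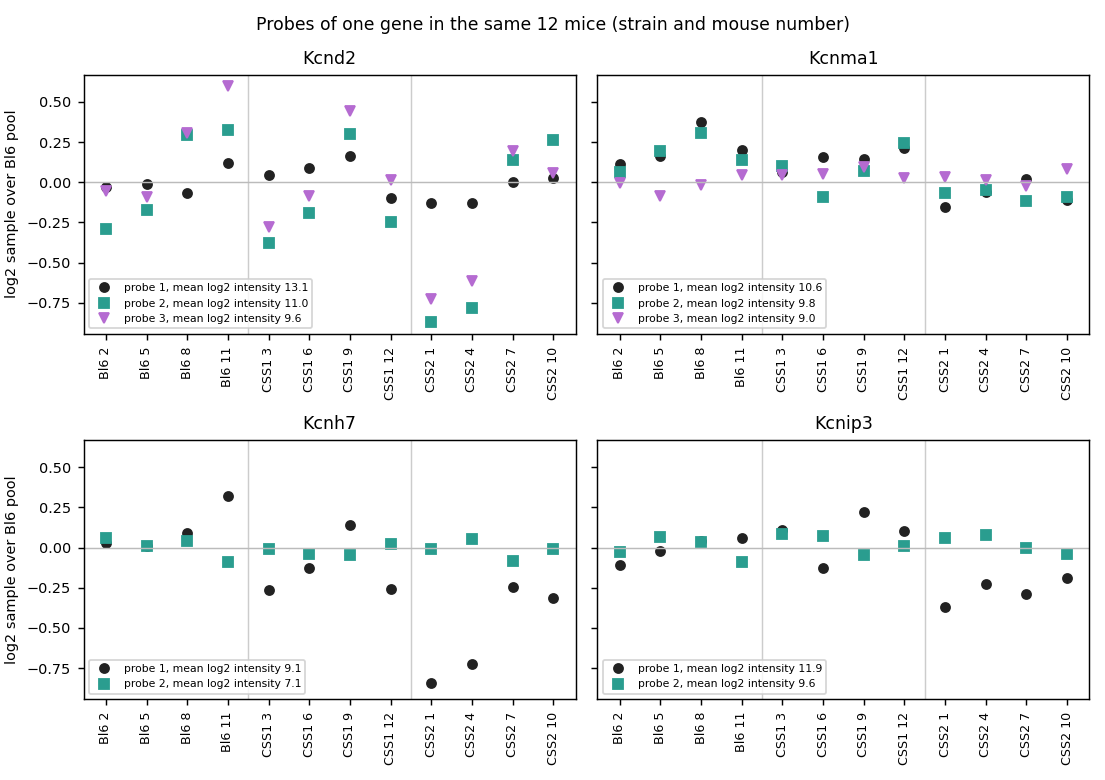
Log2 sample over Bl6 pool on the y axis for each probe of Kcnd2, Kcnma1, Kcnh7 and Kcnip3 in the 12 mice, named by strain and mouse number on the x axis. The dimmer 2 Kcnd2 probes move together from mouse to mouse, and the dimmest probes of Kcnma1, Kcnh7 and Kcnip3 stay near 0 where the brightest is low in CSS2.

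Members on the substituted chromosome were few. On chromosome 1, Kcnh1 differed by 0.32 in CSS1, and Kcnk2, Kcnq5 and Kcnt2 by -0.20, -0.050 and -0.052, with a median size of 0.12 against 0.069 for the other 33 members. The dimmer Kcnq5 probes gave 0.073 and 0.042 in CSS1, and the dimmer Kcnt2 probe gave -0.040. Of all 1178 measured genes of that chromosome, 93 passed in CSS1, or 7.89%, and the median size was 0.049. On chromosome 2, all 5 members lay below 0 in CSS2, as did 930 of all 1935 genes there. Kcnh7 and Kcnip3 stood at -0.64 and -0.26, Kcna4 at -0.14, Kcnt1 at -0.030 and Kcns1 at -0.0084. Their median size was 0.14 against 0.057 for the other 32 members, none of the 5 passed the threshold, and 3.93% of all chromosome 2 genes did. The median size over all genes of that chromosome was 0.044. By their dimmer probes, Kcnh7, Kcnip3 and Kcnt1 stood at -0.0175, 0.025 and -0.039 in CSS2. Sequence differences under a probe can change its signal on the substituted chromosome, which was not tested.

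Potassium channel genes outside the set also passed the threshold, some at a smaller adjusted p than any member and some at a larger one. The alternative analyses were not run on these genes or on the lists that follow. How far their calls depend on processing or single mice is therefore not known. Of 52 measured others, 4 were higher in CSS1 than in Bl6 and 1 was lower. The share of all genes past the threshold was 2.03% in CSS1, 1.04% in CSS2 and 0.97% in CSS1 against CSS2. The list was chosen with earlier results of these data known. Kcnj9, a GIRK subunit on chromosome 1, had the largest difference, 0.98 ± 0.067 (SE, limma adjusted p = 2.86e-05). The others on the higher side were the Kv3 genes Kcnc1, at 0.54 (adjusted p = 0.0295), and Kcnc2, at 0.35 (0.0124), and the beta subunit gene Kcnab3, at 0.45 (0.00513). Kcne1l, an auxiliary subunit, was lower by a difference of -0.33 (0.0418). In CSS2, Kcnab3 at 0.33 (0.0354) and the two-pore gene Kcnk15 at 0.22 (0.0106) were higher and none was lower. CSS1 exceeded CSS2 in Kcnj9, by 0.91 (2.84e-05), and lay below it in Kcnk15, at -0.21 (0.0100).

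A further list held 28 measured genes named as channel partners, and whether each product binds a channel was not examined. Of these genes, 4 were higher in CSS1 and none lower. They were Lgi3, at 0.46 (adjusted p = 0.0244), Lgi4, at 0.18 (0.0275), Cntnap1, the axonal adhesion protein Caspr, at 0.22 (0.0190), and Amigo1, a partner of Kv2 channels, at 0.21 (0.0305). In CSS2, Lgi3, at 0.43 (0.0487), and Lrrc26, an auxiliary subunit of the BK channel, at 0.21 (0.0416), were higher. Between CSS1 and CSS2 only Lrrc26 of this list passed, with CSS1 lower, at -0.24 (0.0160). The shares over all genes were again 2.03% in CSS1, 1.04% in CSS2 and 0.97% in CSS1 against CSS2. This list too was chosen with earlier results known.

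Markers of other cells differed between the strains as well. Across all genes, 2.03% passed in CSS1 and 1.04% in CSS2, and the marker lists were chosen with earlier results known. Of 15 measured markers of myelinating oligodendrocytes, 9 were higher in CSS1 and 8 in CSS2 than in Bl6. Their median over the list ran from -0.28 to 0.19 among the Bl6 mice, from 0.53 to 0.69 in CSS1 and from 0.43 to 0.75 in CSS2. The 15 astrocyte markers ran from -0.10 to 0.014 in Bl6, from 0.16 to 0.23 in CSS1 and from 0.064 to 0.14 in CSS2, with 4 higher in CSS1 and 1 in CSS2. Of 13 markers of dividing cells, 8 were lower in CSS1 and 1 in CSS2, and of 13 markers of immature neurons and progenitors, 5 and 2. All these markers were above background on all 12 arrays. The 20 hippocampal neuron markers had medians from -0.058 to -0.0060 in Bl6, 0.031 to 0.053 in CSS1 and -0.064 to 0.0084 in CSS2. The 14 measured pan-neuronal markers had medians from -0.10 to 0.13 in Bl6, 0.026 to 0.21 in CSS1 and -0.050 to 0.0735 in CSS2, with median differences from Bl6 of 0.16 and 0.0935 and 1 marker called higher in each strain. The 9 oligodendrocyte precursor markers had medians from -0.070 to 0.015 in Bl6, -0.054 to 0.029 in CSS1 and 0.085 to 0.198 in CSS2. Their median difference from Bl6 was 0.047 in CSS1, with 1 called lower, and 0.17 in CSS2, with 3 called higher. Of 15 interneuron markers, 2 were higher in CSS1 and 1 in CSS2, and 1 of 13 microglia markers was higher in CSS1. Of 13 endothelial and mural markers, 1 was higher and 1 lower in CSS1, and none of 10 meningeal and choroid plexus markers passed. In CSS1 against CSS2, where 0.97% of all genes passed, 3 markers of dividing cells were lower in CSS1. No other cell marker list held over 1 call there. The part of these differences in the potassium channel values was not tested, and in tissue RNA fewer cells of a type and less RNA per cell cannot be told apart.

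The 3 calls among the members depended on the processing and on single mice. Kcnk2 in CSS1 passed in 13 of 22 alternative analyses, with adjusted p from 0.0166 to 0.825, and lost its call when any of 6 mice was left out, Bl6 mice 2, 5 and 11 and CSS1 mice 6, 9 and 12. Its passes include the mean of its probes, which is the same values as it has 1 probe. They also include the fits without a CSS2 mouse, which keep the difference at -0.1953 and change only its p. Kcnma1 in CSS2 passed in 5 of 22, with adjusted p from 0.0133 to 0.457, and of the 12 analyses without a mouse it passed only without CSS2 mouse 7. Kcnt1 in CSS1 against CSS2 passed in 5 of 22, from 0.0195 to 0.648, and without a mouse it passed only without Bl6 mouse 8. That mouse is of neither strain compared, so the difference stayed at 0.1849 and only its p changed. Without any 1 mouse of CSS1 or CSS2 the Kcnt1 call was lost, with limma adjusted p from 0.0524 to 0.170. The sign of all 3 differences was the same in every alternative. Sizes ranged from -0.22 to -0.17 for Kcnk2, from -0.38 to -0.17 for Kcnma1 and from 0.10 to 0.20 for Kcnt1, the smallest for Kcnma1 and Kcnt1 with all probes of the gene averaged.

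Some members just outside the threshold came inside it in part of the same 22 alternatives. Kcnh7 in CSS2 passed in 7, with adjusted p from 0.0189 to 0.221, among them the authors' deposited ratios and the mean of its probes. Averaging its probes moved the difference from -0.64 to -0.33. The pass without CSS1 mouse 9 left the difference as it was and changed only its p. Kcnip3 passed in 5 in CSS1 against CSS2, from 0.00419 to 0.279, and in 2 in CSS2 against Bl6. These 2 passes likewise kept the Kcnip3 difference, at -0.26. Kcna1 passed in 2 in CSS1 and 3 in CSS2, Kcnh1 in 2 in CSS1 and Kcnt1 in 3 in CSS1 against Bl6. Each of these last calls appeared with array weights and without Bl6 mouse 8, which was the highest Bl6 mouse for all 3 genes.

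**Figure D4:**
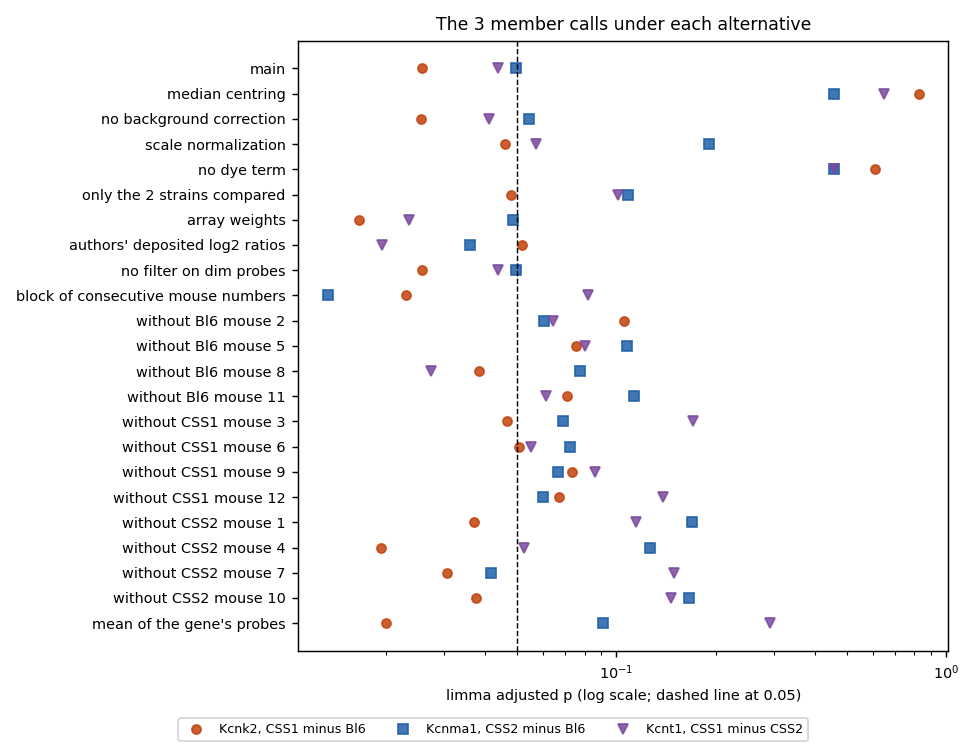
Limma adjusted p on a log x axis for the 3 calls among the members under the main analysis and each of 22 alternatives, with a dashed line at 0.05. Most points of Kcnma1 and Kcnt1 lie to the right of the line, and median centring and leaving out the dye term move all 3 farthest.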

How the data were processed

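Spot intensity was deposited by the authors for both channels, as foreground and local background, not normalized per the file headers. No source used here names the scanner, the software or the build. A deposited table holds log2 ratios of these arrays that the authors normalized in an unstated way. Where Cy5 labelled the mouse, 6 of 6 columns ran with the scanner ratio, and where Cy3 did, 6 of 6 ran against it, so they are sample over pool. Their strain differences correlated with those computed here at 0.972 (CSS1) and 0.974 (CSS2), with size ratios of 1.03 and 1.02, so the base is log2. The median of each column was -0.00339, 0.00139, -0.00359 and 0.00585 (Bl6 mice 2, 5, 8 and 11). For CSS1 mice 3, 6, 9 and 12 they were -0.000279, -0.00358, -0.00502 and 0.00337, and for CSS2 mice 1, 4, 7 and 10 they were 0.00493, -0.00155, -1.02e-05 and 0.0011, so each array is centred near 0. Scale, centring per array and direction were thereby settled, and the normalization stays unknown.

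Intensities were background-corrected with normexp (offset 50) and normalized within each array (global loess, limma 3.58.1, R 4.3.3), giving weight 0 to 2200 control and 3591 quality spots of the 45220. Probes were kept above a mean log2 intensity of 6.23, the 95th percentile of 1580 control spots at background level. This dropped 190 and kept 39239. The platform annotation gave 32431 gene probes 1 symbol, 0 several and 6998 none. Chromosomes come from RefSeq's GRCm38.p6 gene table. A gene is represented by its brightest kept probe.

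Strain and dye were fitted over 12 arrays with eBayes (8 residual, 3.21 prior degrees of freedom), and p-values were adjusted by Benjamini-Hochberg over all kept probes of a comparison. Intervals are 95% intervals of the fit. Arrays of the same orientation correlated at 0.168 to 0.7. The number of arrays limits the precision. The fit was tested on simulated data. Values by mouse are given for members past the threshold, the 3 smallest p per comparison, members on chromosome 1 (CSS1) or 2 (CSS2) and the smallest p of each class. Others are named after their values were seen. The members and the gene lists were chosen with earlier results of these data known. Since the design text names individual mice, each array was counted as 1 animal.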

Additional observations from a re-analysis of the deposited data

Results flagged for a closer look

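Among the 111 sets of 4 mice given by 37 genes and 3 strains, 7 held a mouse flagged by Dixon's ratio, where chance gives about 1 in 20, or 5.55. This ratio sets the gap between a mouse and its nearest neighbour against the range of the 4 mice. A small gap can thus be flagged where the other mice lie close together. CSS2 mouse 1, whose array had the lowest share of probes above background, was the low mouse in 3 of the 7 sets. It stood at -0.2236 for Kcnq5, with the others from -0.0718 to -0.0488, at -0.1299 for Kcnn2, with the others from 0.0547 to 0.0925, and at -0.2695 for Kcnt2, with the others from -0.0114 to 0.0305. Bl6 mouse 8 was high at 0.0506 for Kcna5, with the others from 0.0078 to 0.012, and at 0.0344 for Kcnt1, with the others from -0.0789 to -0.0601. Bl6 mouse 11 was low at -0.0868 for Kcns1, with the others from -0.0044 to 0.0037. CSS1 mouse 6 was low at -0.3183 for Kcnk9, with the others from 0.0304 to 0.0955.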

How the results depend on the processing

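Of 21 differences of named genes, 18 kept their sign under every alternative run. Kcnq5 in CSS1 turned to 0.0217 with its probes averaged, and Kcnt2 in CSS1 ranged from -0.1233 to 0.0086 when single mice were left out, positive without CSS1 mouse 12. Kcns1 in CSS2 turned to 0.0071 without background correction, to 0.0074 with scale normalization, and ranged from -0.0326 to 0.0166 with single mice left out, positive without Bl6 mouse 2 (0.0013) and without CSS2 mouse 10. The count of member probes past the threshold, 1 in each comparison, moved more. In CSS1 against Bl6 it was 0 with median centring, 0 with no dye term and 4 with array weights (Kcna1, Kcnh1, Kcnk2 and Kcnt1), and 0 to 5 with a mouse left out, 5 without Bl6 mouse 8. In CSS2 against Bl6 it was 0 without background correction, with scale normalization and with no dye term, 3 with array weights and with a block of consecutive mouse numbers (both Kcna1, Kcnh7 and Kcnma1), 2 with the authors' deposited ratios (Kcnh7 and Kcnma1), and 0 to 2 with a mouse left out. In CSS1 against CSS2 it was 0 with median centring, scale normalization, no dye term or only these 2 strains, 2 without background correction, with array weights and with the authors' deposited ratios (Kcnip3 and Kcnt1), and 0 to 2 with a mouse left out. The authors' deposited ratios kept the count of 1 in CSS1 against Bl6 but for Kcnt1, median centring and a fit of only the 2 strains kept it in CSS2 for Kcnh7 and Kcnip3, and the block kept it in CSS1 against CSS2 for Kcnip3. The median over members in CSS2 turned to 0.0104 with median centring. With a mouse left out, that of CSS1 ranged from 0.0129 to 0.0394, and the omission of mouse 8 or 11 of Bl6, or of 6 or 12 of CSS1, moved it by over 1.5 times. That of CSS2 ranged from -0.0246 to 0.0017, moved as much by omitting 5 or 8 of Bl6, or 4, 7 or 10 of CSS2, and was positive with 8 or 7 omitted. That of CSS1 against CSS2 ranged from 0.0234 to 0.0616, moved as much by omitting 6 or 12 of CSS1, or 7 of CSS2. Counts over all probes moved as well: in CSS1 680 became 177 with median centring, 219 with no dye term, 355 in a fit of only the 2 strains and 1559 with array weights, and in CSS2 355 became 179 with median centring, 149 with no dye term, 595 with array weights and 545 with the block. In CSS1 against CSS2, 360 became 163 with median centring, 211 with no dye term and 236 in a fit of only these 2 strains. With a mouse left out they ranged from 247 to 816 in CSS1, from 169 to 357 in CSS2 and from 237 to 369 in CSS1 against CSS2. The mice whose omission lowered a count by over 1.5 times were 2, 5 and 11 of Bl6 with 3 and 9 of CSS1 in the first comparison, 2, 5 and 11 of Bl6 with 1, 4 and 10 of CSS2 in the second, and 10 of CSS2 in the last. The causes were not tested. The labels number the mice 1 to 12 and give no replicate number to mice of different strains, so they pair none. The block of consecutive numbers, which puts 1 mouse of each strain in a block, was the matched fit run, and under it Kcnt1 in CSS1 against CSS2 lost its call (adjusted p = 0.0818).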

Other observations

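Probes 2 and 3 of Kcnd2 followed mouse number, a pattern chosen after the values were seen. By probe 2, all 6 mice numbered 1 to 6 lay below 0, from -0.87 to -0.17, and 5 of the 6 numbered 7 to 12 lay above 0, with CSS1 mouse 12 at -0.24. The brightest Kcnh7 probe showed this in part. CSS2 mice 1 and 4 stood at -0.84 and -0.72, and mice 7 and 10 at -0.24 and -0.31. CSS1 mice 3 and 12 stood alike, at -0.27 and -0.26. With the block of consecutive mouse numbers, the limma adjusted p of Kcnh7 in CSS2 was 0.0189, against 0.0703 in the main fit. The labels give no batch, and what the numbers stand for is not stated.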
